A study of Mus musculus with 96 samples.

Results

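Chemokine receptors are cell-surface receptors that steer leukocytes along gradients of small secreted proteins, the chemokines. The set described here holds Ccr1, Ccr2, Cx3cr1, Ccrl2 and Cxcr4, and its values come from every probe set that the array's annotation assigns to these genes. The annotation given names a probe set for 4 of the 5 genes, through 8 of the 18858 probe sets. Cxcr4, the receptor for Cxcl12 that holds cells in the bone marrow, was not analysed here. Ccr1 had 2 probe sets, Ccr2 had 3, Cx3cr1 had 2 and Ccrl2 had 1.

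The samples are primary bone marrow dendritic cells of the mouse, grown in culture; neither strain, age nor genotype is stated in the labels. Cells were exposed to 5 ligands of Toll-like receptors, which the labels call Lps, Pic, Pam, Cpg and Grd, and sampled at 9 times from 0.5 to 24 h. From knowledge of the study these are lipopolysaccharide, seen by TLR4; poly(I:C), which mimics double-stranded RNA and is seen by TLR3; a lipopeptide for TLR2; CpG DNA for TLR9; and gardiquimod for TLR7. A ligand had 2 arrays at a time, save for Cpg at 16 and at 24 h with 1, so that Cpg had 16 arrays and the other ligands had 18. Cells given no ligand, called Control, were sampled once at each of 8 times (0, 1, 2, 4, 6, 8, 12 and 24 h). The 96 arrays shared a single plate: columns 1 to 9 each held 1 time of every ligand but Cpg, and columns 10 to 12 held every Cpg and Control array. Within columns 1 to 9, Lps filled rows A and B, Pic rows C and D, Pam rows E and F and Grd rows G and H, with 1 replicate per row. Place on the plate therefore cannot be told apart from time, nor from ligand against Control for those 4 ligands. Nor can plate row be told apart from ligand or replicate among those 4. Whether replicate arrays stem from separate cultures is not in the labels, so a p-value here reflects the spread of these samples alone, and that spread may be technical.

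As background, Ccr2 binds Ccl2, Ccl7 and Ccl12 and brings monocytes and their descendants out of the marrow and into inflamed tissue. Ccr1 binds Ccl3, Ccl5, Ccl6 and Ccl9 and also serves recruitment to inflamed sites. Cx3cr1 binds the membrane-bound chemokine Cx3cl1 (fractalkine) and is widely used to mark mononuclear phagocytes. Ccrl2 is an atypical receptor that binds the chemoattractant chemerin without the usual G protein signal. Maturing dendritic cells are known to exchange the receptors that bring them to inflamed tissue for the one that takes them to lymph nodes, Ccr7, which was not analysed here.

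Intensities are on a linear scale, and none is under 20, called the floor below. On each array 33.1% to 34.6% of probe sets sat there, and array medians ran from 48.75 to 59.5. A probe set at 20 has only an upper bound. Precision is limited by how many arrays a group has. Genes of antigen presentation were abundant, which alone does not settle the cell type: on Control arrays Cd74 lay between 7645.8 and 8412.5 and H2-Aa between 4660.7 and 5792.5. Itgax, which encodes CD11c, lay between 1536 and 4172.6 there. Flt3, a receptor of the dendritic lineage, stayed near the floor, between 26.1 and 32.8, on those arrays. Macrophage genes were also expressed, with the 6 measured ones summing to 9898.5 to 14932 on the same arrays.

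All 4 measured genes lie on chromosome 9 in RefSeq's table of genes (GRCm38.p6). Ccr1 and Ccr2 lie in 1 run of receptor genes, in the order Ccr9, Fyco1, Cxcr6, Xcr1, Ccr1, Ccr1l1, Ccr3 and Ccr2, while Cx3cr1 lies beside Ccr8 and Ccrl2 beside Ltf. Of the other receptors in that run, Ccr9 and Cxcr6 had probe sets, with no array above 57.2 for Ccr9 and every array at the floor for Cxcr6. The sequences below are RefSeq's windows around the start of the gene that rose with every ligand (Ccrl2, the most upstream of its 3 windows) and of both genes of that run that fell (Ccr1 and Ccr2). Each runs 5′ to 3′ on the gene's strand, from 250 bases before the start to 50 after it, in build GRCm38.p6. Capitals mark matches to the NF-kB consensus on either strand.
Ccrl2, chr9:111057469-111057768, minus strand: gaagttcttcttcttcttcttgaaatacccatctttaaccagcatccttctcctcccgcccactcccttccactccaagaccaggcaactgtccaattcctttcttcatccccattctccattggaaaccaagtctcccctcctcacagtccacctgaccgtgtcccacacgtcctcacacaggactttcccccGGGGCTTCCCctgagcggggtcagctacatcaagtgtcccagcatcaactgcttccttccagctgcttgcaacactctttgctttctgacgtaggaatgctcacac
Ccr1, chr9:123968643-123968942, minus strand: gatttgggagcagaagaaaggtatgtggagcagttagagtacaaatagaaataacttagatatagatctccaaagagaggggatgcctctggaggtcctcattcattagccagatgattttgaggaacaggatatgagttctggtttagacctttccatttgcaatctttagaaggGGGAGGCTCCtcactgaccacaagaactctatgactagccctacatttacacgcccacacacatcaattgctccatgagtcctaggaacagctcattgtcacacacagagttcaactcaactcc
Ccr2, chr9:124101933-124102232, plus strand: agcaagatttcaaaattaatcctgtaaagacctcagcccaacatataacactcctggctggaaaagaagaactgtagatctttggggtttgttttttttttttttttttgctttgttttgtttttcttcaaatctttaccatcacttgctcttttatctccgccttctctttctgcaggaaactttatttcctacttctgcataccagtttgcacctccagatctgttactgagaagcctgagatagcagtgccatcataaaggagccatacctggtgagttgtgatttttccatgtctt
The NF-kB match begins at position -56 in the Ccrl2 window and at -74 in the Ccr1 window, counted from the start. None was found in the Ccr2 or Cx3cr1 window or in the other 2 Ccrl2 windows. The same consensus occurs in 8.46% of all 32851 promoter windows of that length. The searches for the interferon-stimulated response element (3.44% of all windows), TGANTCA (AP-1, 7.81%) and TTCNNNGAA (STAT sites, 8.30%), on both strands, found no match in the windows of the 4 genes. A match is a description of letters, and its use was not tested.

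The 4 receptors followed 3 courses. Ccr2 was called lower with all 5 ligands and Ccr1 with 4, and Ccrl2 rose within the first hours. Cx3cr1 left the floor at 12 h or later with Pam, Grd, Cpg and Control, and with Lps at 16 h only. Times of 0.5 to 2 h form the early window, those of 4 to 8 h the middle window and those of 12 to 24 h the late window. Each window's mean was set against all 8 Control arrays on a log2 scale with limma. "Called" means a log2 difference of 1 or more in either direction with a Benjamini-Hochberg adjusted p under 0.05, over 10543 genes and unnamed probe sets. Over 15 windows, Ccrl2 was called higher in 15, Ccr2 lower in 10, Ccr1 lower in 4 and Cx3cr1 higher in 3.

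**Figure D1:**
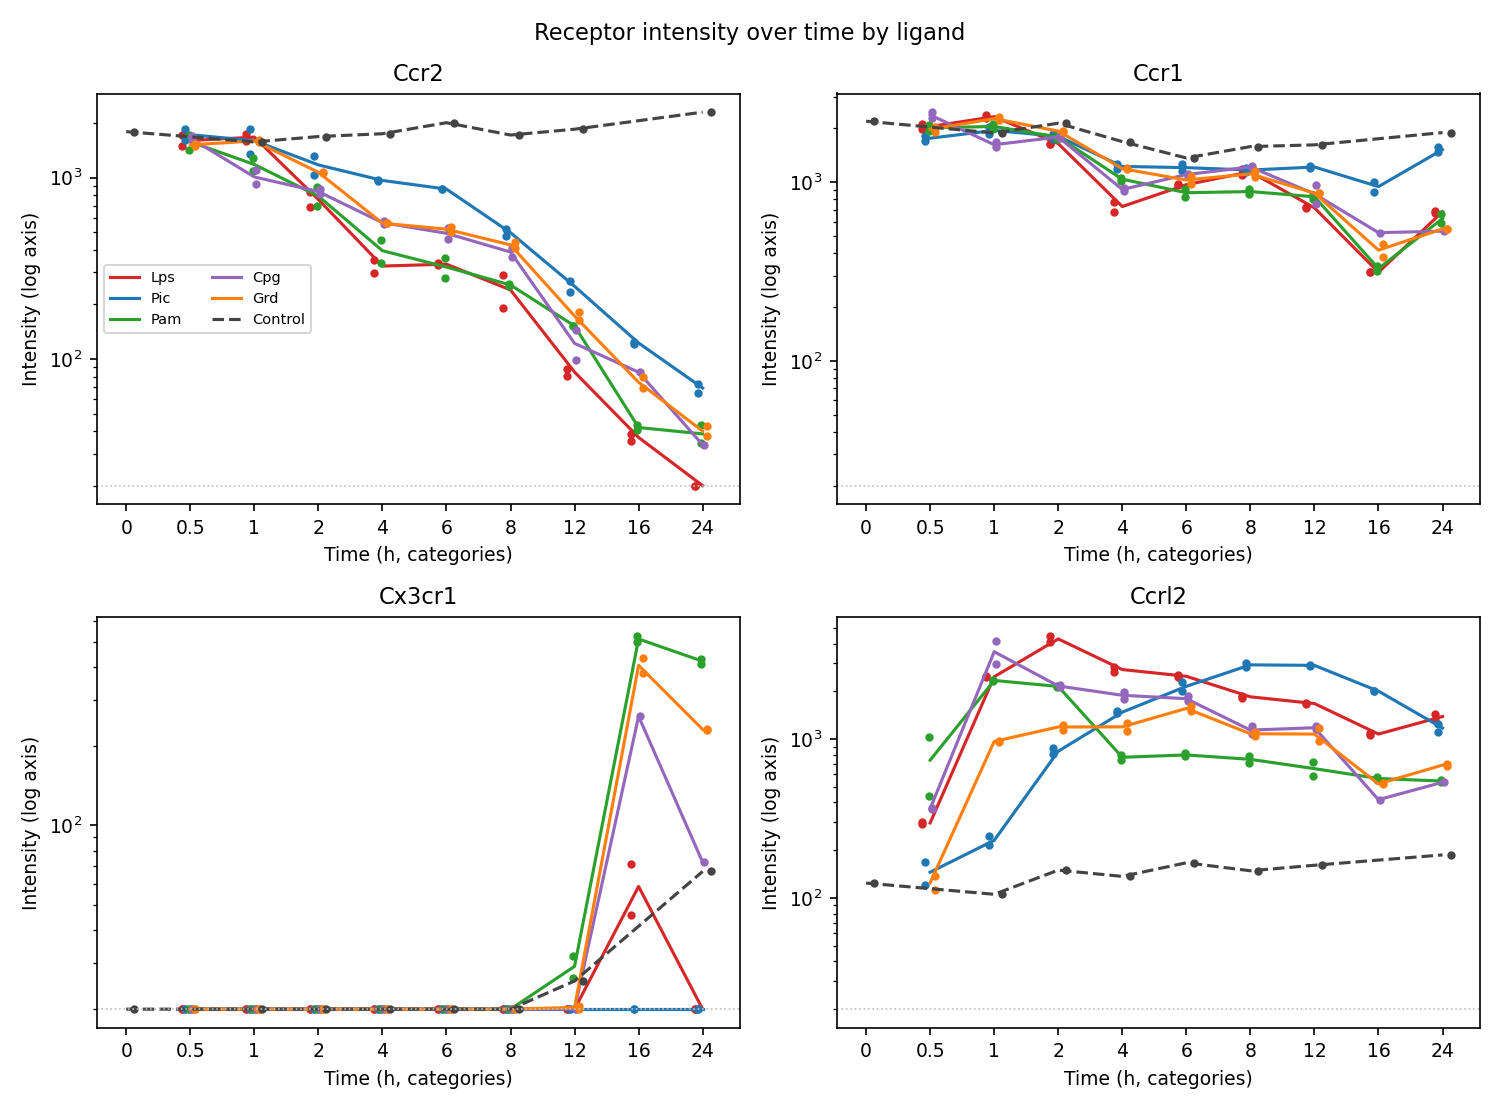
Intensity (log axis) of the brightest probe set of each receptor against time in h, spaced as categories; points are arrays, lines join group means, dashes are Control and the dotted line is the floor of 20. Ccr2 falls to between 20 and 73.2 at 24 h with every ligand, Ccr1 is lowest at 16 h, Ccrl2 stays above the Control arrays from 1 h on, and Cx3cr1 leaves the floor after 8 h.

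In the early window no receptor was called lower and 1, Ccrl2, was called higher with each ligand. Of all items tested, 1.57% were called higher with Lps, 0.617% with Pic, 1.65% with Pam, 1.85% with Cpg and 0.948% with Grd. Called lower were 0.55%, 0.247%, 0.74%, 0.294% and 0.171% in the same order. In the middle window 1 of the 4 receptors was called lower (Ccr2) and 1 higher (Ccrl2) with every ligand. The share of all items called lower there was 8.22% with Lps, 2.79% with Pic, 4% with Pam, 5.53% with Cpg and 3.92% with Grd, and the share called higher was 7.05%, 4.93%, 3.48%, 5.4% and 4.53%. In the late window Pam, Cpg and Grd each had 2 receptors lower (Ccr1 and Ccr2) and 2 higher (Ccrl2 and Cx3cr1). Lps had the same 2 lower and 1 higher (Ccrl2), and Pic had 1 lower (Ccr2) and 1 higher (Ccrl2). The late shares of all items called lower were 4.42% with Lps, 4% with Pic, 2.97% with Pam, 3.23% with Cpg and 2.88% with Grd. Those called higher were 4.7%, 4.53%, 3.42%, 3.86% and 3.84%. The members were proposed with results of these data known, so these counts describe them and are not a test of the set. Because the 15 comparisons share the same Control arrays, they are not independent of each other.

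**Figure D2:**
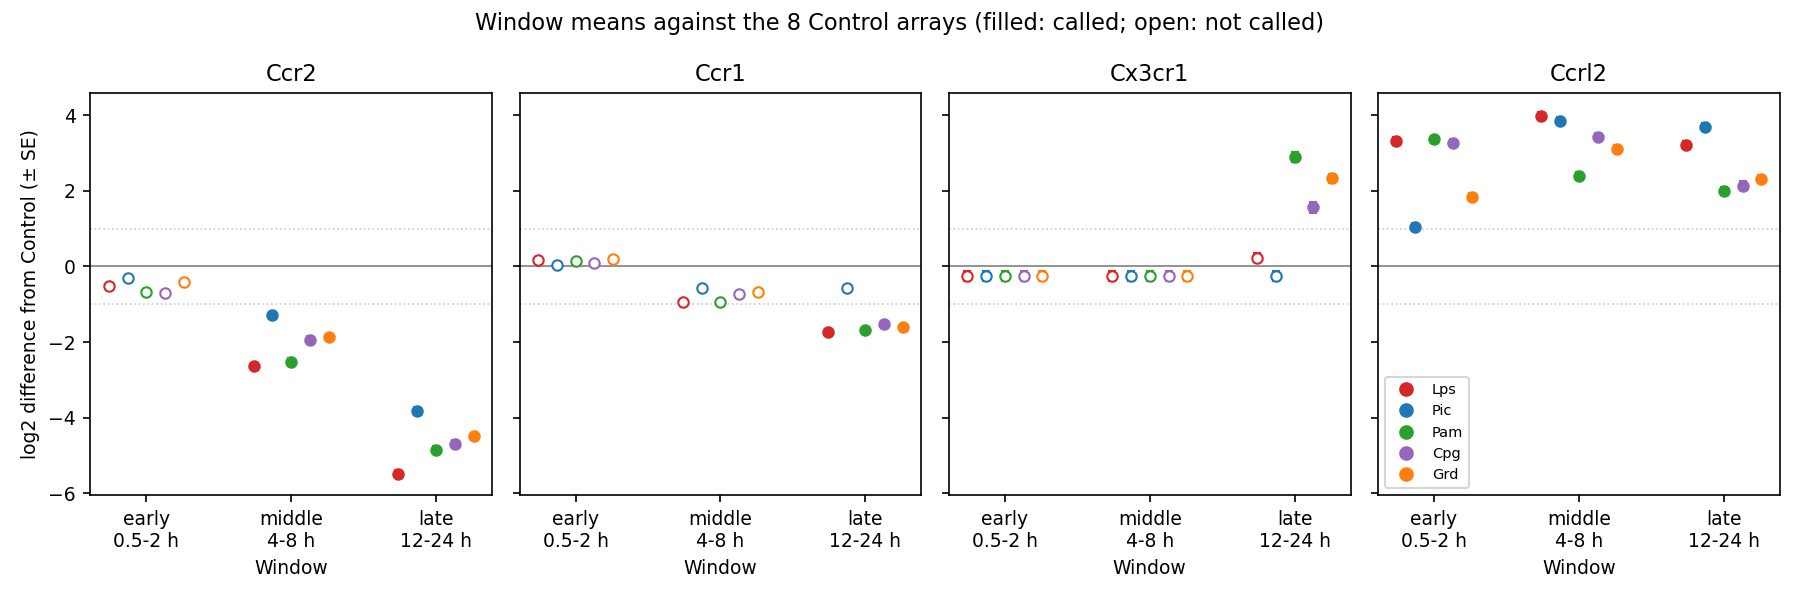
log2 difference (± SE of the fit) of each ligand's window mean from the 8 Control arrays; filled points were called, open points were not, and dotted lines mark a size of 1. Ccr2 moves down from window to window with all 5 ligands, while Cx3cr1 is called only in the late window with Pam, Cpg and Grd; its equal open points at -0.25 are groups wholly at the floor.

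Ccr2, the monocyte receptor for Ccl2, showed the deepest loss of the 4. On Control arrays its brightest probe set ranged from 1573.5 to 2296.9, with a mean of 1834 ± 226 (SD, n = 8). With Lps the arrays read 1710.6 and 1494.7 at 0.5 h, 1595.2 and 1750.3 at 1 h, and 686.7 and 828.2 at 2 h. They then read 352.9 and 297.9 at 4 h, 330.1 and 336.2 at 6 h, 290.2 and 190.2 at 8 h, 80.8 and 88.5 at 12 h, 38.5 and 35.3 at 16 h, and 20 and 20 at 24 h. From 2 h on every Lps array lay below the lowest Control array. At 24 h both Lps arrays sat at the floor, so the Control mean was at least 91.7-fold higher.

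With the other ligands Ccr2 fell along a like path and stayed above the floor. At 24 h the intensities were 65.1 and 73.2 with Pic, 34.2 and 43 with Pam, 42.5 and 37.5 with Grd, and 33.6 on the single Cpg array. The Pic arrays were the highest of the 5 ligands at every time from 4 h on, at 959.7 and 970.8 at 4 h and 866.7 and 862.4 at 6 h, where no Lps array was above 352.9. With Cpg the loss was under way at 1 h, with 1097.3 and 920.7, and with Pam at 1082.4 and 1282.1, both below the Control range. In cells pooled into 1 RNA sample, fewer cells that make a transcript and less transcript per cell cannot be told apart.

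In the early window the Ccr2 differences from Control, -0.31 to -0.71, did not reach the required size. In the middle window Ccr2 fell with Lps by 2.63 ± 0.0873 on the log2 scale (SE; limma, adjusted p = 1.3e-32) and with Pic by 1.29 ± 0.0873 (adjusted p = 6.1e-19). Pam, Cpg and Grd lay between, at -2.52, -1.94 and -1.87. The Pic call rests on the 8 h arrays, as the difference without them was -0.996, just short of the size required. Late log2 differences were -5.48 ± 0.0873 with Lps (adjusted p = 7.4e-47), -4.84 for Pam, -4.68 ± 0.103 for Cpg, -4.49 for Grd, and -3.81 for Pic (adjusted p = 1.6e-39). These are 44.7-fold, 28.7-fold, 25.7-fold, 22.5-fold and 14.1-fold lower levels as fitted on log2(intensity + 1), with 2 of the 6 late Lps arrays at the floor.

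The loss went on from the middle to the late window with all 5 ligands. The late minus middle differences of Ccr2 were -2.85 with Lps, -2.53 with Pic, -2.32 with Pam, -2.75 with Cpg and -2.62 with Grd (limma, adjusted p between 4.6e-32 and 1.3e-27). Among ligands, Pic left more Ccr2 than Lps in the middle window by 1.34 ± 0.0933 and in the late window by 1.67 ± 0.0933. Pic also exceeded Pam by 1.23 in the middle and by 1.03 in the late window, the second of these falling under the required size without the 16 h arrays (0.78), with an offset of 16 (0.86) and without any of 3 single arrays: Pam at 24 h, replicate 1 (0.97), Pic at 12 h, replicate 2 (0.99), or Pic at 24 h, replicate 2 (0.998). Lps minus Grd in the late window was -0.99, at the edge of the required size, and without the Cpg array of 24 h Lps minus Cpg moved from -0.80 to -1.32. Ordered by late level from the highest, the ligands ran Pic, Grd, Cpg, Pam and Lps. Neighbours in that order were all under the required size apart: Grd and Cpg differed by 0.19 (adjusted p = 0.38) and Cpg and Pam by 0.16 (adjusted p = 0.34), while Pic and Grd (0.68) and Pam and Lps (0.64) differed beyond the replicate spread.

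The other probe sets of Ccr2 gave the same late loss. The middle one of the 3 by brightness, between 1068.1 and 2203.8 on Control arrays, differed by -5.61 for Lps, -5.10 for Pam, -4.89 for Cpg, -4.63 for Grd and -4.14 for Pic, with 2 late Lps arrays and 1 late Pam array at the floor. The dimmest, between 77.6 and 114.6 on Control arrays, lay at the floor on every late array but 1 (20.3 with Pic at 12 h), so its difference of -2.12 is a bound. The middle probe set also read low at 0.5 h, and only on some arrays. It gave 397.2 and 730.2 with Lps, 438.2 and 372.7 with Pic, 445.5 and 512.5 with Pam and 486.8 and 438.3 with Grd, all in plate column 1. In plate column 10 it gave 1244.2 and 1164.3 with Cpg at the same time. Its ratio to the brightest probe set was 0.232 to 0.489 on those 8 arrays of column 1 and 0.634 to 1.10 on the Control arrays. The brightest probe set did not show this dip, with 1425.8 to 1846.8 on the same 8 arrays, and the part of plate place in it was not tested.

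**Figure D3:**
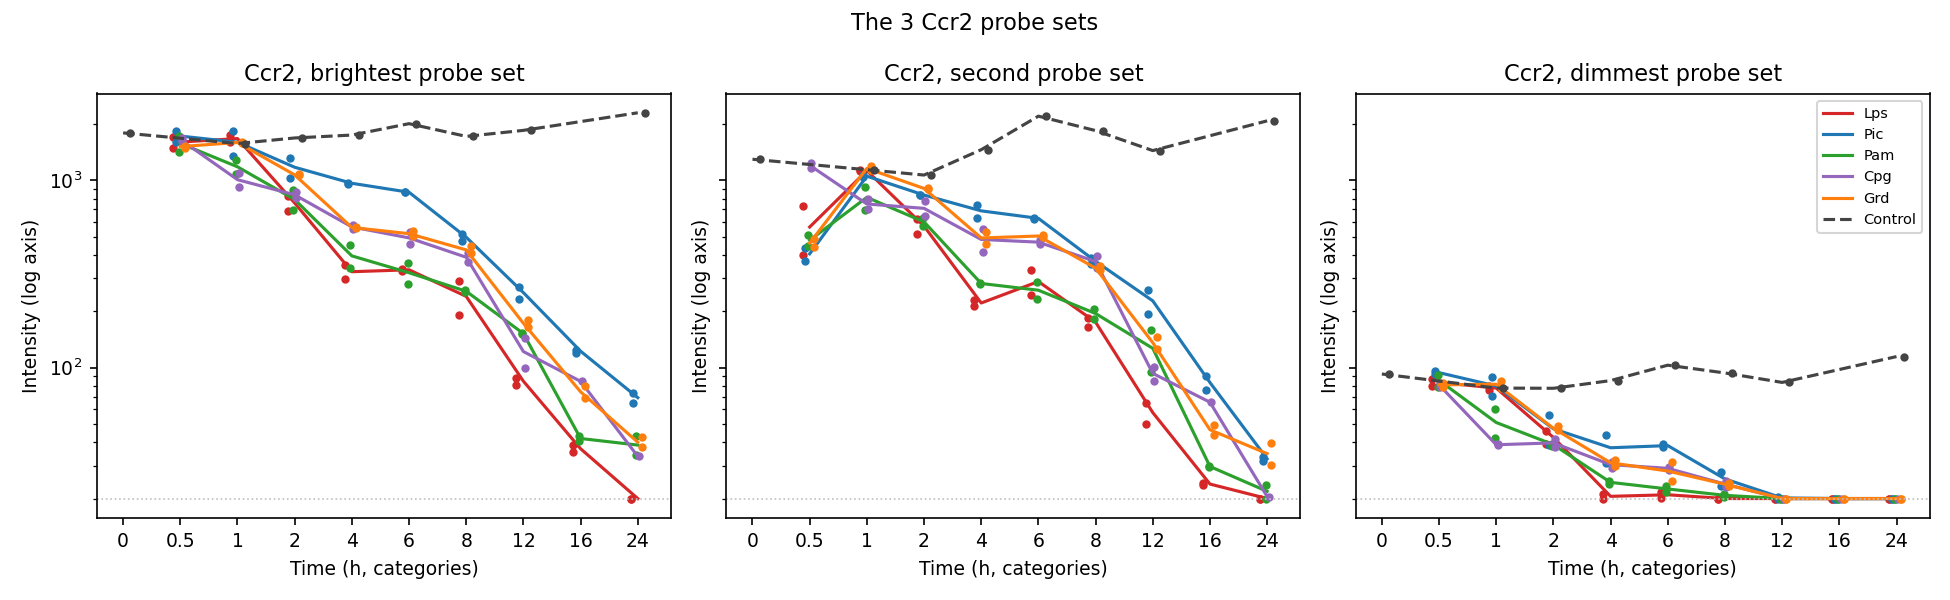
Intensity (log axis) of the 3 Ccr2 probe sets against time in h, spaced as categories, with points for arrays, lines for group means and dashes for Control. All 3 fall with every ligand, and the low start at 0.5 h with Lps, Pic, Pam and Grd (372.7 to 730.2) is seen in the middle panel only.

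Ccr1, the receptor for Ccl3 and Ccl5, fell later and less, and with Pic it was not called. Control arrays ranged from 1364 to 2190.6, with a mean of 1793 ± 284 (SD, n = 8). With Lps the early arrays lay between 1641.1 and 2359.3, within or slightly above that range, and the 4 h arrays at 776.4 and 682.8. The level came back to 1186.3 and 1098.1 at 8 h, then dropped to 712 and 721.9 at 12 h and to 313.9 and 311.9 at 16 h, and stood at 689.3 and 675.3 at 24 h. The lowest mean was at 16 h with every ligand, so the course was not a steady decline.

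With Pam the 16 h arrays read 317.2 and 338.4, with Grd 382.9 and 449.4, and with Cpg 521 on its single array. With Pic they read 884.4 and 1002.2, and at 24 h 1563.1 and 1475.2, again within the Control range. With all 5 ligands every array from 4 to 16 h lay below the lowest Control array, and with the other 4 so did those of 24 h. Early differences from Control were between 0.05 and 0.21 and middle differences between -0.57 and -0.93, none called. Without the 8 h arrays the Lps middle value was -1.08, and without the 4 h arrays the Pam middle value was -1.01, which would both be called.

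The late Ccr1 differences were -1.73 ± 0.0600 with Lps (limma, adjusted p = 1.8e-31), -1.68 with Pam, -1.61 with Grd and -1.52 ± 0.0705 with Cpg (adjusted p = 1.5e-25). These are 3.31-fold, 3.20-fold, 3.04-fold and 2.87-fold lower levels. The Pic difference was -0.56 (adjusted p = 6e-12), larger than the replicate spread and under the required size. The difference between ligands was itself called for Pic above Lps by 1.17, above Pam by 1.12 and above Grd by 1.05. Pic also stood above Cpg, by 0.96, which was not called. The other 4 ligands did not differ from each other by more than 0.21. Without the 16 h arrays Lps minus Pic was -0.96, Pic minus Pam 0.92 and Pic minus Grd 0.98, and without the 24 h arrays Pic minus Grd was 0.83, all under the required size. The dimmer Ccr1 probe set, 136 to 204.2 on Control arrays, gave late differences of -2.14 with Lps, -2.20 with Pam, -1.99 with Grd, -1.98 with Cpg and -0.72 with Pic.

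Cx3cr1, the fractalkine receptor, was the one receptor of the set that was not detectable at first and then appeared. Its brighter probe set lay at the floor on 79 of the 96 arrays, among them every ligand array from 0.5 to 8 h and the 6 Control arrays up to 8 h. With Pam it read 26.3 and 31.9 at 12 h, 526.4 and 496.3 at 16 h, and 411.3 and 430.1 at 24 h. With Grd it read 20 and 20.6, then 380.7 and 431.1, then 232.9 and 230.3 at the same times. With Cpg it was at 20 on both arrays of 12 h, at 259.9 at 16 h and at 72.4 at 24 h. Lps gave 45.5 and 71.6 at 16 h and the floor at 12 and 24 h, and all 6 late Pic arrays read 20.

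On the Control arrays this probe set read 25.6 at 12 h and 66.8 at 24 h, with 1 array at each time. The second probe set read 20 on both, and the trend over the day, given below, was not called in its main form. The Cpg array of 24 h was thus close to the Control array of that time, while all Pam and Grd arrays of 16 and 24 h lay above it. At 24 h the Lps and Pic arrays, at the floor, were below the Control array.

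Against the 8 pooled Control arrays the late window was higher by 2.90 ± 0.124 with Pam (limma, adjusted p = 3.2e-27), 2.33 ± 0.124 with Grd and 1.56 ± 0.146 with Cpg, all called. Lps (0.24) and Pic (-0.25) were not. The equal values of -0.25 in every early and middle window reflect only the 2 Control arrays above the floor. With 79 of the 96 arrays tied at the floor, most groups of this gene show no spread. The SE and p-values of Cx3cr1, here and below, therefore do not measure the spread of its values above the floor. When the late window is set against the Control arrays of 12 and 24 h alone, which leaves out 16 h, the values become 1.40 with Pam, 0.73 with Grd, -0.11 with Cpg and -1.02 with both Lps and Pic. Only the Pam gain was called on both comparisons. The Cpg call also ends without its 16 h array (0.65).

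Differences between ligands use no Control array, but the ligands also differed in plate place. Late Pam levels exceeded Lps by 2.66 ± 0.133 and Pic by 3.15 ± 0.133, Grd exceeded them by 2.10 and 2.59, and Cpg by 1.32 and 1.81. All 6 late Pic arrays and 4 of the 6 late Lps arrays were at the floor, an upper bound on their level, so these values depend on the floor and are not exact sizes. Pam exceeded Cpg by 1.34, while Pam and Grd differed by 0.56 (adjusted p = 0.0011) and Lps and Pic by 0.49, under the required size. From the middle to the late window the rise was 3.15 with Pam, 2.59 with Grd and 1.81 with Cpg, called in each case, against 0.49 with Lps and 0 with Pic; every middle array was at the floor, so these rises are not exact sizes either. Without the Cpg array of 16 h, Lps minus Cpg was -0.41, Pic minus Cpg -0.90 and the Cpg rise 0.90, and without the 24 h arrays Pam minus Cpg was 0.74, all under the required size. Cpg minus Grd went from -0.77 to -1.69 without that 16 h array, past the required size.

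The second Cx3cr1 probe set, which reads dimmer, gave the same order of ligands. It left the floor on 10 arrays: 93.2 and 90.3 with Pam, 73.1 and 110.1 with Grd, 37.1 with Cpg and 20.8 on 1 Lps array at 16 h, then 70.7 and 66.4 with Pam and 41.9 and 40.7 with Grd at 24 h. All 8 Control arrays read 20 there, including the one at 24 h. Late differences were 1.29 with Pam and 1.04 with Grd, called when every probe set was tested, and 0.29 with Cpg, not called.

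**Figure D4:**
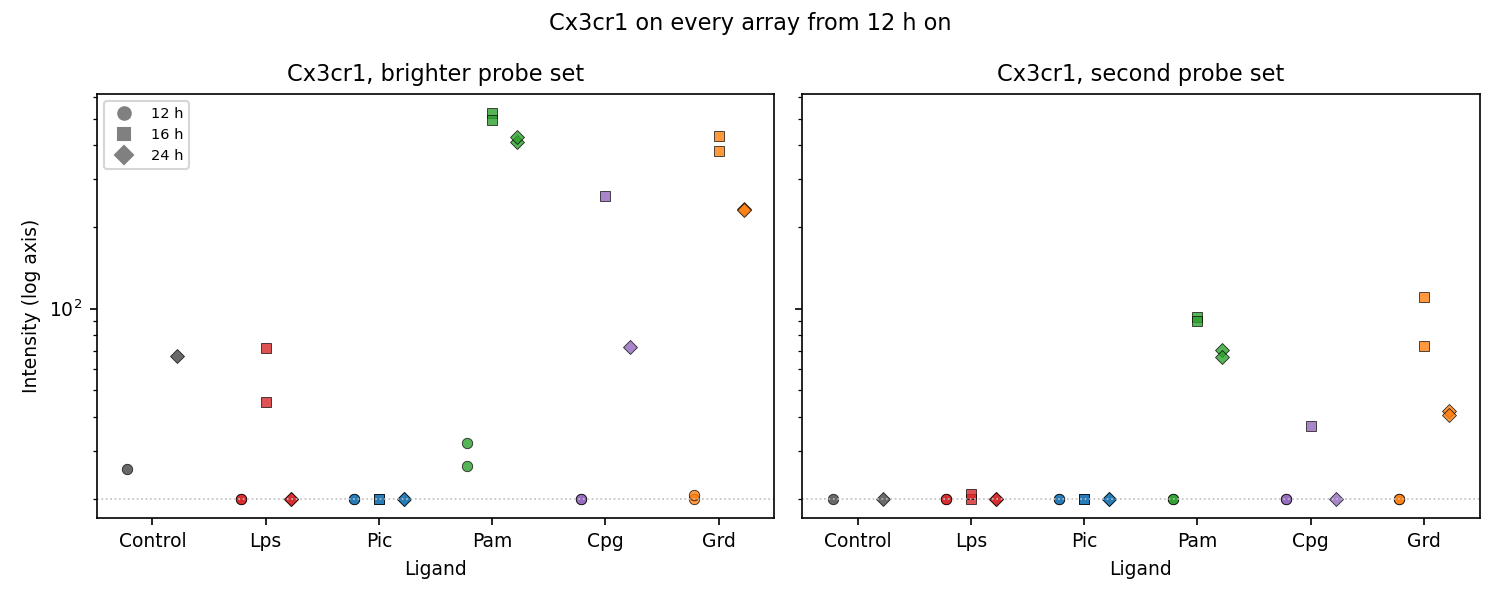
Intensity (log axis) of both Cx3cr1 probe sets on every array from 12 h on, by ligand, with circles for 12 h, squares for 16 h and diamonds for 24 h; the dotted line is the floor of 20. Pam and Grd stand highest at 16 and 24 h in both panels, the Control array of 24 h reads 66.8 in the left panel and 20 in the right, and Pic stays at 20.

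Ccrl2, the atypical receptor, rose with every ligand and in every window, and the ligands differed in both timing and size. Control arrays ranged from 105.7 to 187, with a mean of 148 ± 25.4 (SD, n = 8). With Lps it read 303 and 292.1 at 0.5 h, 2491.6 and 2456.9 at 1 h and 4073.4 and 4486.2 at 2 h. It then declined to 1657.3 and 1697.7 at 12 h and to 1055.9 and 1100.2 at 16 h, and stood higher again, at 1451.9 and 1328, at 24 h. Every Lps array lay above the highest Control array.

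The peak came at different times. Cpg peaked at 1 h with 4148.5 and 2959, whose arrays were far apart, and Pam at 1 h with 2320.1 and 2368.6. The 2 Pam arrays of 0.5 h also differed widely, at 1037.9 and 438.8. Pam dropped early, to 795.8 and 744.1 at 4 h, and held between 540.6 and 813.9 from then on. Grd reached 966.1 and 971.7 at 1 h and 1497.8 and 1627.3 at 6 h. It read 520 and 527.2 at 16 h and 676.7 and 698.5 at 24 h. Pic was the slowest, with 121.7 and 169.6 at 0.5 h inside the Control range, 246.9 and 215.3 at 1 h, 802.2 and 878.9 at 2 h, and a maximum of 3011 and 2866.8 at 8 h.

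In the early window Ccrl2 was higher than Control by 3.36 ± 0.10 with Pam (limma, adjusted p = 2.2e-33), 3.32 with Lps and 3.26 with Cpg, by 1.84 with Grd and by 1.05 with Pic (adjusted p = 8.1e-12). The Pic call rests on 2 h, since without it the difference was 0.32. It also ended with an offset of 16 (0.998), without 1 Pic array of 0.5 h (0.97) and without the Control array of 1 h (0.99). Middle differences were 3.99 with Lps, 3.85 with Pic, 3.42 with Cpg, 3.11 with Grd and 2.40 with Pam. Late differences were 3.70 with Pic, 3.21 with Lps, 2.31 with Grd, 2.13 ± 0.117 with Cpg and 2.00 with Pam. Pic thus went from last of 5 in the early window to first in the late one.

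Several differences between ligands within a window were called, while a change of order between windows was not tested. Pic was not called apart from Grd in the early window (-0.79) or from Lps in the late one (0.48). In the early window Lps, Pam and Cpg exceeded Pic by 2.27, 2.31 and 2.21 ± 0.107 and Grd by 1.48, 1.52 and 1.42, and these 3 did not differ from each other by more than 0.10. In the middle window Pam was lower than Lps by 1.59, than Pic by 1.45 and than Cpg by 1.03, the last falling to 0.89 without 4 h. Late Pic levels exceeded Pam by 1.70, Cpg by 1.57 and Grd by 1.38, and Lps exceeded Pam by 1.21 and Cpg by 1.08. The Lps and Cpg difference was 0.77 without the Cpg array of 16 h, 0.95 without that of 24 h and 0.94 without all 24 h arrays. Only Cpg was called lower in the late than in the middle window (-1.29), and without its 16 h array that was -0.98.

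Over all 4 receptors, 120 ligand pairs were compared (10 pairs, 3 windows) and 28 were called, 14 of them for Ccrl2, 7 for Cx3cr1, 4 for Ccr2 and 3 for Ccr1. The adjusted p-values run over all items of each contrast. In the early window, where Ccrl2 supplied all 6 called pairs, the share of all items called was 0.863% for Lps and Pic, 0.0569% for Lps and Pam, 0.0759% for Lps and Cpg, 0.266% for Lps and Grd and 0.939% for Pic and Pam. It was 1.22% for Pic and Cpg, 0.19% for Pic and Grd, 0.0474% for Pam and Cpg, 0.285% for Pam and Grd and 0.446% for Cpg and Grd. In the middle window Ccrl2 had 3 called pairs and Ccr2 had 2. The shares were 3.72% for Lps and Pic, 6.15% for Lps and Pam, 0.465% for Lps and Cpg, 1.99% for Lps and Grd and 8.24% for Pic and Pam. They were 3.41% for Pic and Cpg, 4.03% for Pic and Grd, 3.03% for Pam and Cpg, 1.48% for Pam and Grd and 0.417% for Cpg and Grd. In the late window Cx3cr1 had 7 called pairs, Ccrl2 had 5, Ccr1 had 3 and Ccr2 had 2. The shares were 3.44% for Lps and Pic, 2.97% for Lps and Pam, 0.579% for Lps and Cpg, 1.2% for Lps and Grd and 8.47% for Pic and Pam. They were 5.08% for Pic and Cpg, 6.35% for Pic and Grd, 1.17% for Pam and Cpg, 0.645% for Pam and Grd and 0.237% for Cpg and Grd. Pic against Pam therefore had the most items called among the pairs of the middle and late windows, and all 4 receptors were among them in the late window. Between the middle and late windows of 1 ligand, 9 of 20 receptor comparisons were called, against 6.82% of all items with Lps, 2.27% with Pic, 2.3% with Pam, 4.12% with Cpg and 2.63% with Grd.

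In unstimulated cells no receptor was called over the day. A trend on the 8 Control arrays gave log2 changes from 0 to 24 h of 0.36 for Ccr2 (limma, adjusted p = 0.11), -0.38 for Ccr1 (adjusted p = 0.22), 0.66 for Ccrl2 (adjusted p = 0.029) and 1.24 for Cx3cr1 (adjusted p = 0.083). The share of items called was 5.58%. The Cx3cr1 trend rests on the arrays of 12 and 24 h, and fitted as linear in hours it was 1.67 (adjusted p = 0.0091), which would be called.

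Other receptors of chemoattractants mostly had no probe set or read near the floor. Of 23 listed, 11 had a probe set, 4 of these lay at the floor on every array and 7 were tested. None of the 7 was called in any of the 15 windows, while 23% of all items were called in at least 1. Fpr2, a receptor for formyl peptides, was the abundant one, between 2063.3 on the lowest and 5485.6 on the highest array, with differences of 0.17 to 0.92. C5ar1, the receptor for the complement fragment C5a, reached 174 at most and varied from 21.4 to 94.9 among Control arrays. Against the Control arrays of 1 and 2 h alone it would be called higher in the early window with Lps and Cpg. Ccr4, Ccr9, Cxcr2, Cxcr3 and Cxcr5 did not pass 57.2 on any array. The Control medians of Ccr4, Cxcr2, Cxcr3 and Cxcr5 lay at the floor, so these genes could not be called lower.

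Among the chemokines that bind these receptors, 12 of 15 had a probe set, 10 were tested, and 5 were called higher and 1 lower in at least 1 of the 15 windows. Of all items, 11.1% were called higher, 12.7% lower and 23% in either direction in at least 1 window. Ccl4 rose in all 15 windows, by 1.69 to 5.74, and Ccl3 in 14 of 15, the exception being Pic in the late window, where it was 0.72 against all Control arrays and 1.53, past the threshold, against those of 12 and 24 h. Ccl2, the main ligand of Ccr2, was called higher in 14, with differences up to 3.67. Its Control arrays ranged from 40.7 to 944, and 5 of its 15 windows depend on the setting. With Pam in the late window the value was -0.52, but 1.89 against the Control arrays of 12 and 24 h, 1.37 with a trend in Control and -1.26 with array weights, each past the threshold. The call with Pic in the early window ended against same-time Control (2.37 to 0.77) and with a trend in Control (0.90). With array weights the calls with Pic late (0.62), Pam middle (0.61) and Grd late (0.97) ended. Ccl7, another ligand of Ccr2, was called in 3 windows, the middle ones of Lps (2.69), Cpg (2.34) and Grd (1.30), the last falling to 0.94 with an offset of 16. All Ccl7 Control arrays read 20 to 20.1, so these are differences from the floor. The remaining Ccr2 ligand, Ccl12, was called in 4 windows, up to 2.57.

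Of the ligands with high levels in unstimulated cells, Ccl5 and Ccl9 were not called in any window, while Ccl6 was called lower in 3. Ccl5 (7920.1 to 9471 on Control arrays), Ccl9 (10168.9 to 12161.7) and Ccl6 (10324.6 to 11846) were near the top of the scale. Ccl6 was lower in the late window by 1.00 with Lps, 1.06 with Pam and 1.04 with Cpg, at the edge of the required size. Its lowest array read 3598.8, against 10324.6 for the lowest Control array. None of its windows was called against Control arrays of the same times. Cx3cl1, the ligand of Cx3cr1, was between 89.5 and 134.9 on Control arrays with differences of 0.05 to 0.63, none called. The median of the 10 genes in the middle window was 1.09 with Lps, 0.68 with Pic, 0.16 with Pam, 1.43 with Cpg and 0.56 with Grd, beside medians of all items of -0.11, -0.10, -0.03, -0.08 and -0.06.

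**Figure D5:**
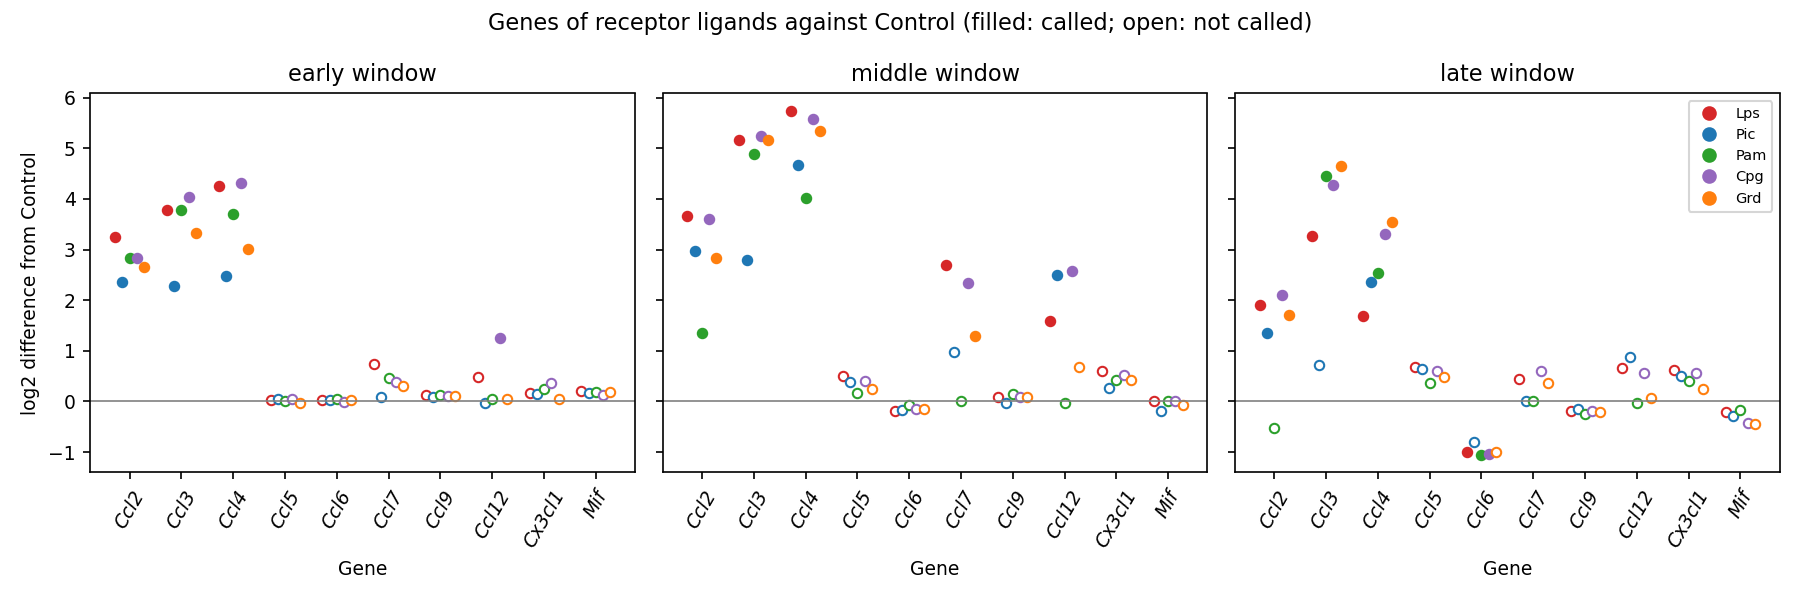
log2 difference from Control of 10 genes for ligands of the receptors in the early, middle and late windows; filled points were called, open points were not. Ccl2, Ccl3 and Ccl4 rise in every early window, Ccl7 and Ccl12 mainly in the middle one, and Ccl5, Ccl9, Cx3cl1 and Mif have only open points.

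Of 24 genes of receptor signalling and its shutdown, 20 had a probe set and 19 were tested; 2 were called higher and 8 lower in at least 1 of the 15 windows, against 11.1% and 12.7% of all items. With arrays centred on their medians, which moves the Lps middle median of all items from -0.11 to 0.08, 5 were called lower. Rgs1, which switches off G proteins below chemokine receptors, was called higher in 11 windows, up to 2.56 with Pic in the middle window. Rgs2, of the same family, was called lower in 9, down to -3.65 with Pam in the middle window, while with Pic it differed by 0.36 there and by -0.12 in the late window. Arrb1, an arrestin that uncouples receptors, was called lower in 9, down to -3.03 with Lps in the middle window, of which Pic late (-1.04) and Pam middle (-1.08) were close to the required size and ended under other settings (-0.97 with an offset of 16 and -0.98 with same-time Control). Plcb2, a phospholipase downstream of these receptors, was called lower in 6, down to -1.60 with Lps in the middle window; its 3 late calls ended with an offset of 16 (-0.92 with Lps, -0.85 with Cpg and -0.95 with Grd). It differed by 0.09 and -0.02 with Pic in the middle and late windows. The median of the 19 genes was -0.52 in the Lps middle window and -0.29 in the Lps late window.

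Over the 46 group means, Ccr1 and Ccr2 had a Pearson r of 0.88, and Ccrl2 had -0.01 with Ccr1 and -0.07 with Ccr2. Cx3cr1 had -0.68 with Ccr1 and -0.60 with Ccr2. It lay at the floor on 79 of the 96 arrays, so its r values, here and below, rest on its few groups above the floor. All r values are descriptions, since all genes of a group share the same RNA, arrays and plate places. Among 5936 named genes whose highest group mean was at least 64, the courses most like that of Ccr2 were Mrc1 (the mannose receptor, r = 0.97), S100a6, S100a9, Clec7a (the beta-glucan receptor Dectin-1) and Ramp1 (r = 0.95). For Ccr1 they were Pdcd1lg2 (PD-L2, r = 0.92), S100a10, Clec7a, Ccdc80 and Crip1 (r = 0.91). For Cx3cr1 they were Gsdme (r = 0.94), Tmem119, Mmp9 (a gelatinase), Pim2 and Abcb4 (r = 0.88), and for Ccrl2 they were Ccng2 (r = 0.88), Sowahc, Gadd45b, Sdc4 and Rgs1 (r = 0.87).

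Markers of other cells moved beside the late changes. Of 9 neutrophil genes, 7 were measured, and the sum of their intensities ranged from 5172.3 to 8190.4 on Control arrays. In the late window it ranged from 1207 to 3028.2 with Lps, 2284.5 to 3226.9 with Pam, 1597.7 to 3780.7 with Cpg, 2177.1 to 4392.3 with Grd and 3917.3 to 6186.5 with Pic. The Pic range overlapped that of Control, and the other 4 did not. Called lower were 4 of the 7 with Lps and with Cpg, 3 with Pam and with Grd and 0 with Pic; Ltf differed by -2.82, -2.13, -3.33, -2.30 and -0.78 in that order. Across the ligands, the share of all items called lower late ran from 2.88% (Grd) to 4.42% (Lps). Elane and Mpo, which mark neutrophil precursors, lay near the floor in Control (at most 37) and were not called late. The part of these cells in the loss of Ccr1 and Ccr2 was not tested.

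Of 8 macrophage genes, 6 were measured, with a sum of 9898.5 to 14932 on Control arrays. In the late window it was 14563 to 19655.1 with Lps, 11932.8 to 15022.9 with Pic, 15544.9 to 21410.3 with Pam, 16178.3 to 20682.3 with Cpg and 16623.9 to 22734.9 with Grd. Adgre1, which encodes F4/80, rose late by 2.48 with Grd, 2.33 with Cpg, 2.28 with Pam and 1.79 with Lps, and differed by -0.63 with Pic. Mertk, also a macrophage gene, differed late by -2.22 with Pam, -1.70 with Grd, -1.42 with Cpg and -1.27 with Lps, all called, and by 0.68 with Pic. Of 5 monocyte genes 3 were measured, with a sum of 4024.7 to 5813.9 on Control arrays. Late sums were 4765.5 to 7881.7 with Pam, 6602.4 to 8252.5 with Grd and 5667.2 to 6610.7 with Cpg. They were 5981.8 to 8147.1 with Lps and 6724.3 to 7903.8 with Pic. The Grd, Lps and Pic ranges lay above that of Control, while the Pam and Cpg ranges overlapped it. The part of these cells in the gain of Cx3cr1 was not tested. The 11 genes of dendritic cells and antigen presentation summed to 28329.2 to 30474.1 on Control arrays. Late medians of that sum were 29068.9 with Pic, 26190.4 with Cpg, 25968.3 with Lps, 25307.2 with Pam and 23599.8 with Grd, whose arrays (20344.8 to 27587.6) all lay below Control. Batf3, a dendritic cell factor, was called lower late with Lps, Pam, Cpg and Grd (-1.20 to -1.31), and the part of this shift in the receptor values was not tested. The sums for B cells (20 to 28.4), T cells (20 to 26.9), mast cells and basophils (20 to 28) and erythroid cells (20 to 23.8) stayed near the floor over all 96 arrays, each resting on 1 gene above it. The plasmacytoid dendritic cell list rested on 1 gene above the floor, at 46.7 to 83.1 on Control arrays and up to 592.7 with Lps in the middle window. The 1 natural killer and the 1 stromal gene with a probe set lay at the floor on every array.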

How the data were processed

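Per the labels, biotin-labelled total RNA of mouse bone marrow dendritic cells went onto Affymetrix arrays read in 1 colour. RMA, named in the submitters' processing notes without a version, covers background correction, normalization across arrays and the summary of probes into probe sets. The authors deposited linear intensities, none under 20; where this floor was set is not stated in the sources used. Each sample was placed in its group by its own title.

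Names come from the platform annotation: 1 symbol for 15044 probe sets, several for 257 and no gene for 3557; 15024 were matched to RefSeq (GRCm38.p6) and 0 symbols changed. The 4409 probe sets that never left the floor were dropped, and the brightest one stood for its gene. log2(intensity + 1) was fitted with limma 3.58.1 in R 4.3.3, with 1 mean for each of 45 ligand and time groups and 1 for Control, 50 residual degrees of freedom, and two-sided tests. Calls needed a Benjamini-Hochberg adjusted p under 0.05 over 10543 items and a log2 difference of at least 1 in size. The fit was tested on simulated data. Arrays of 1 group correlated at 0.985 to 0.998 (43 pairs).

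The text names the members, up to 4 called genes per pathway list with the largest differences, and the 5 genes most like each member; Ccl12, Ccl6, Ccl5, Ccl9, Cx3cl1, Fpr2, C5ar1 and the remaining receptors were named after their values were seen. Members and lists were chosen with earlier results of these data known. Alternatives were another offset, median centring, other filters, every probe set, other uses of Control, array weights, a replicate block, and leaving out each time and each array. Replicate numbers did not pair arrays: over 903 pairs of groups the deviations correlated at -0.33 to 0.35, with 17.4% over 0.1.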

Additional observations from a re-analysis of the deposited data

Results flagged for a closer look

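Within the 8 Control arrays, Cx3cr1 at 24 h (66.8) stood apart from the others, of which 6 lay at 20 and 1 at 25.6, by Dixon's test on log2 values (ratio 0.80 against a critical value of 0.526). No array stood apart for Ccr1, Ccr2 or Ccrl2. Since 6 of the 8 values are tied at the floor, the ratio depends on the floor, and the rate of about 1 in 20 such groups that chance marks does not apply. The cause was not tested.

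Differences between the late and the middle window of the same ligand were called for Ccr2 with Lps (-2.85), Pic (-2.53), Pam (-2.32), Cpg (-2.75) and Grd (-2.62). They were also called for Cx3cr1 with Pam (3.15), Grd (2.59) and Cpg (1.81), and for Ccrl2 with Cpg (-1.29). The Cpg values for Cx3cr1 and Ccrl2 rest on its single array of 16 h.

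The second Cx3cr1 probe set, which no main comparison uses, reached 110.1 with Grd at 16 h while all 8 Control arrays read 20.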

How the results depend on the processing

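Of 60 differences of a receptor window from Control, 52 kept their side of the threshold under every alternative run, as did 104 of 120 ligand pairs, 13 of 20 late minus middle differences and 3 of 4 Control trends. Against Control arrays of the same times, which leaves out 16 h, the late Cx3cr1 value was -1.02 with Lps (turned from 0.24), -1.02 with Pic, -0.11 with Cpg (turned from 1.56) and 0.73 with Grd. The count of receptors higher then was 1 with Cpg and 1 with Grd, and the count lower was 2 with Pic. With Lps, Cx3cr1 was then called lower as well, beside Ccr1 and Ccr2. An offset of 16 gave 1.00 (0.998) for Ccrl2 with Pic in the early window, so 0 receptors were higher there, and 0.86 for Ccr2, Pic minus Pam late. Median centring gave -1.01 for Ccr1 with Grd, late minus middle, and 1.00 for Ccr1, Pic minus Cpg late. Linear in hours, the Cx3cr1 Control trend was 1.67. The cause was not tested beyond what the settings themselves leave out.

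Leaving out 1 time gave these changes. Without 0.5 h, Ccrl2 Pic minus Grd early was -1.29. Without 2 h, Ccrl2 with Pic early was 0.32, with 0 receptors higher. Without 4 h, Ccr1 with Pam in the middle window was -1.01, with 2 receptors lower, and Ccrl2 Pam minus Cpg was -0.89; without 6 h the latter was -0.95. Without 8 h, Ccr1 with Lps in the middle window was -1.08, with 2 lower, and Ccr2 with Pic was -0.996, with 0 lower. Without 12 h, late minus middle for Ccr1 was -1.01 with Lps, -1.04 with Pam, -1.02 with Cpg and -1.21 with Grd, and for Ccrl2 with Grd -1.07; late pairs were 1.03 for Ccrl2 Lps minus Grd, 1.18 for Ccr1 Pic minus Cpg and -1.15 for Cx3cr1 Cpg minus Grd. Without 16 h, Cx3cr1 with Cpg was 0.65 late against Control, with 1 receptor higher, and 0.90 late minus middle; Ccrl2 with Cpg late minus middle was -0.98. Late pairs without 16 h were -0.96 for Ccr1 Lps minus Pic, -0.90 for Cx3cr1 Lps minus Cpg, 0.94 for Ccrl2 Lps minus Cpg, 0.92 for Ccr1 Pic minus Pam, 0.78 for Ccr2 Pic minus Pam, 1.01 for Ccr1 Pic minus Cpg, 1.04 for Ccr2 Pic minus Cpg, -0.90 for Cx3cr1 Pic minus Cpg and 0.98 for Ccr1 Pic minus Grd. Without 24 h they were 0.94 for Ccrl2 Lps minus Cpg, -1.003 for Ccr2 Lps minus Grd, 0.83 for Ccr1 Pic minus Grd and 0.74 for Cx3cr1 Pam minus Cpg.

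Leaving out 1 array at a time, values that crossed the threshold ranged as follows. Late pairs ranged from 0.84 to 1.02 for Ccr1 Pic minus Cpg, -1.32 to -0.66 for Ccr2 Lps minus Cpg, -1.02 to -0.95 for Ccr2 Lps minus Grd, 0.35 to 1.00 for Ccr2 Pic minus Cpg and 0.97 to 1.08 for Ccr2 Pic minus Pam. They ranged from 0.77 to 1.10 for Ccrl2 Lps minus Cpg, -1.69 to -0.74 for Cx3cr1 Cpg minus Grd, -1.43 to -0.41 for Cx3cr1 Lps minus Cpg and -1.82 to -0.90 for Cx3cr1 Pic minus Cpg. Ccrl2 with Pic early ranged from 0.97 to 1.13 (0 to 1 receptor higher), Cx3cr1 with Cpg late from 0.65 to 1.76 (1 to 2 higher), and the Cpg late minus middle values from 0.90 to 1.82 for Cx3cr1 and -1.32 to -0.98 for Ccrl2. The lone remaining arrays are assumed to vary like the other groups.

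With the replicate number as a block (replicate block), the late Ccr2 difference with Lps was -5.49 and the late Cx3cr1 difference with Pam 2.88, and no call of a receptor changed.

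For the pathway lists, alternatives were chosen after seeing the data. The signalling list had 5 genes lower with centring in place of 8. The ligand list had 0 lower with same-time Control and 2 with array weights in place of 1, and the list of other receptors had 1 higher (C5ar1) with same-time Control in place of 0. Ccl2 with Pam late turned from -0.52 to 1.89 with same-time Control and to 1.37 with a trend in Control, and was -1.26 with array weights. The floor of 20 limits Ccr2 with Lps at 24 h (and its dimmer probe sets on more late arrays), Cx3cr1 before 12 h, and late Cx3cr1 with Pic, with Lps at 12 and 24 h and with Cpg and 1 Grd array at 12 h.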
